A study of Mus musculus with 12 samples.

Results

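Renal cortex of diabetic mice given sodium butyrate was compared with renal cortex of diabetic mice without it, across all genes. The comparison took 8 of the 12 libraries in the series: 4 of mice with diabetic nephropathy, the kidney disease of diabetes (DN), and 4 of mice with diabetic nephropathy and sodium butyrate (DN+NaB). The other 4 libraries, of normal control mice (NC), are given beside them, and they entered the same fit. All 12 carried the labels C57BL/6 and 12 weeks. The way diabetes was induced, the dose, route and duration of sodium butyrate, any vehicle given to the other groups, the hour of collection and any batch are not given here by the labels. The design text counts 4 mice per group. Nothing in the labels links a library to its mouse, so p-values measure only how these samples spread, which may be technical in part. Of the 46095 gene symbols in the deposited count table, 17530 passed the low-count filter and were tested.

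Butyrate is a short-chain fatty acid that gut bacteria make from fibre. It enters cells through monocarboxylate transporters, is oxidised in mitochondria, activates G protein-coupled receptors and inhibits histone deacetylases, the enzymes that remove acetyl groups from histone tails. In diabetic kidney disease the cortex is known for tubular injury, infiltration by lymphocytes and macrophages, and build-up of matrix, so genes of those processes were looked at together with those of butyrate handling.

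Total counts ran from 58394975 to 70674015 per library, in both the 8 libraries and all 12. The tissue is labelled renal cortex, while the extraction protocol speaks of the prefrontal cortex. Megalin (Lrp2), a receptor of the proximal tubule, had 547305 to 852758 counts, and the neuronal gene Snap25 had 0 in every library, which allows up to 3 counts in each. DN replicate 4 stood apart from the other 7 diabetic libraries: it lay at -45.2 on the first principal component of those 8 libraries, the others from -12.2 to 29.2, and it had 8515 counts of the globin gene Hbb-bs against 183 to 4819. Mitochondrially encoded genes took 0.361% of counts in DN replicate 3 and 2.60% to 2.90% in the other DN libraries. In DN+NaB they took 0.518%, 1.16%, 2.83% and 2.83%.

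Sodium butyrate was accompanied by few gene-level calls. At a Benjamini-Hochberg adjusted p under 0.05 in edgeR's quasi-likelihood test, 4 of 17530 genes (0.0228%) were called, 2 higher (0.0114%) and 2 lower (0.0114%) in DN+NaB. The higher ones were Slc16a1, which encodes the monocarboxylate transporter MCT1, a carrier of lactate, pyruvate and butyrate, and Rnf186, a membrane-bound ubiquitin ligase. The lower ones were Cxcr3, which guides activated T cells along chemokine gradients, and Cd5, found on the T cell surface. These calls depended on the NC libraries in the fit: with the 8 diabetic libraries alone edgeR called 0 genes (smallest adjusted p 0.0939, 1460 genes at an unadjusted p under 0.05). The median log2 fold change over all genes was -0.02. At an adjusted p under 0.10 there were 62 genes (0.354%), 22 higher (0.125%) and 40 lower (0.228%). At an unadjusted p under 0.05 there were 1726 (9.85%), 654 higher (3.73%) and 1072 lower (6.12%). The 4 values of DN+NaB all lay beyond all 4 of DN, with no overlap, for 373 genes on the high side (2.13%) and 427 on the low side (2.44%). For scale, DN against NC gave 1443 calls (8.23%) in the same fit, 669 higher (3.82%) and 774 lower (4.42%) in DN. Both comparisons use the same DN libraries with opposite sign, so opposed values in them are not independent.

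**Figure D1:**
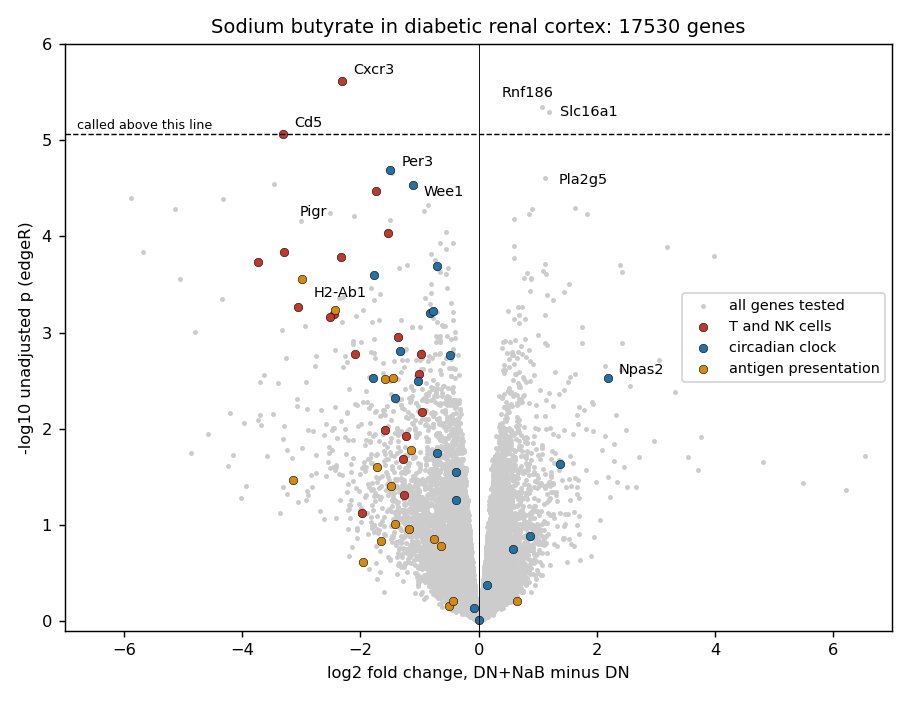
Log2 fold change of DN+NaB minus DN (x axis) against -log10 of the unadjusted p (y axis) for the 17530 genes tested (grey), with the members of 3 lists in colour. Slc16a1, Rnf186, Cxcr3 and Cd5 lie on or above the dashed line that marks the largest p called, and all 20 T and NK cell genes lie left of 0.

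Levels of the called genes are given as CPM (the counts of a gene relative to its library's total), scaled with TMM factors. Slc16a1 stood at 26.3, 18.5, 26.4 and 26.2 CPM in DN replicates 1 to 4 and at 63.7, 49.3, 58.7 and 49.9 in DN+NaB. Every DN+NaB library was above every DN library, and DN overlapped NC (15.6 to 25.3). The mean went from 24.3 ± 3.88 to 55.4 ± 7.04 (SD, n = 4 each), which is 2.27-fold, with a log2 fold change of 1.19 ± 0.17 (SE) and an adjusted p of 0.0299 in edgeR. DN minus NC was 0.17 ± 0.17 for this transporter (adjusted p = 0.622, edgeR).

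Rnf186 stood at 33.1, 39.0, 36.9 and 39.5 CPM in DN and at 89.4, 82.4, 60.6 and 79.6 in DN+NaB. The groups did not overlap, and both lay above NC (15.7 to 23.5). It rose 2.10-fold, from 37.1 ± 2.91 to 78.0 ± 12.3 CPM (SD, n = 4), with a log2 fold change of 1.07 ± 0.15 and an adjusted p of 0.0299 by edgeR. DN minus NC was 0.95 ± 0.15 (adjusted p = 0.00122, edgeR), so this gene was called higher in both comparisons, which share the DN libraries.

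Genes beside Rnf186 on chromosome 4 were looked at after its value was seen. Pla2g5, a secreted phospholipase A2, stood at 32.6, 40.8, 44.4 and 21.2 CPM in DN and at 72.2, 77.1, 78.7 and 73.3 in DN+NaB, with a log2 fold change of 1.12 ± 0.18 (adjusted p = 0.0507, edgeR). All 4 DN+NaB values exceeded the 4 of DN, though the gene missed the threshold. Its neighbour Pla2g2c, another secreted phospholipase A2, stood at 2.88, 1.92, 2.8 and 0.646 CPM in DN and 3.83 to 7.45 in DN+NaB (1.44 ± 0.42). Between Pla2g5 and Rnf186 lie 2 tested genes: the deubiquitinase gene Otud3 had -0.31 ± 0.14 and the predicted gene Gm42333 had 1.12 ± 0.26. Beyond Pla2g2c, Ubxn10 had 0.69 ± 0.22, with overlap, and Camk2n1 had 0.21 ± 0.12. On the other side of Rnf186, Tmco4 had -0.31 ± 0.15, Nbl1 0.18 ± 0.23 and Capzb 0.13 ± 0.12. Reads of overlapping transcripts could have been assigned to either gene, since neither the counting program nor its use of strand is known here.

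Cxcr3 stood at 1.38, 1.0, 0.787 and 0.856 CPM in DN and at 0.238, 0.232, 0.165 and 0.172 in DN+NaB, from 52 to 88 and from 10 to 14 counts. The lowest DN library held a higher level than the highest DN+NaB library. The receptor fell by 2.31 ± 0.30 on the log2 scale (adjusted p = 0.0299, edgeR), which is 4.96-fold. NC held 1.51 to 2.71 CPM, and DN minus NC was -0.99 ± 0.27 (adjusted p = 0.0403, edgeR).

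Cd5 stood at 0.455, 0.704, 0.378 and 0.630 CPM in DN and at 0.0851, 0.0662, 0.0494 and 0.0144 in DN+NaB, that is 25 to 40 counts against 1 to 5. The groups were far apart but the DN+NaB values rest on a handful of counts, so the size of the difference is imprecise. It fell by 3.31 ± 0.49 on the log2 scale (adjusted p = 0.0376, edgeR). NC held 0.693 to 1.84 CPM.

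**Figure D2:**
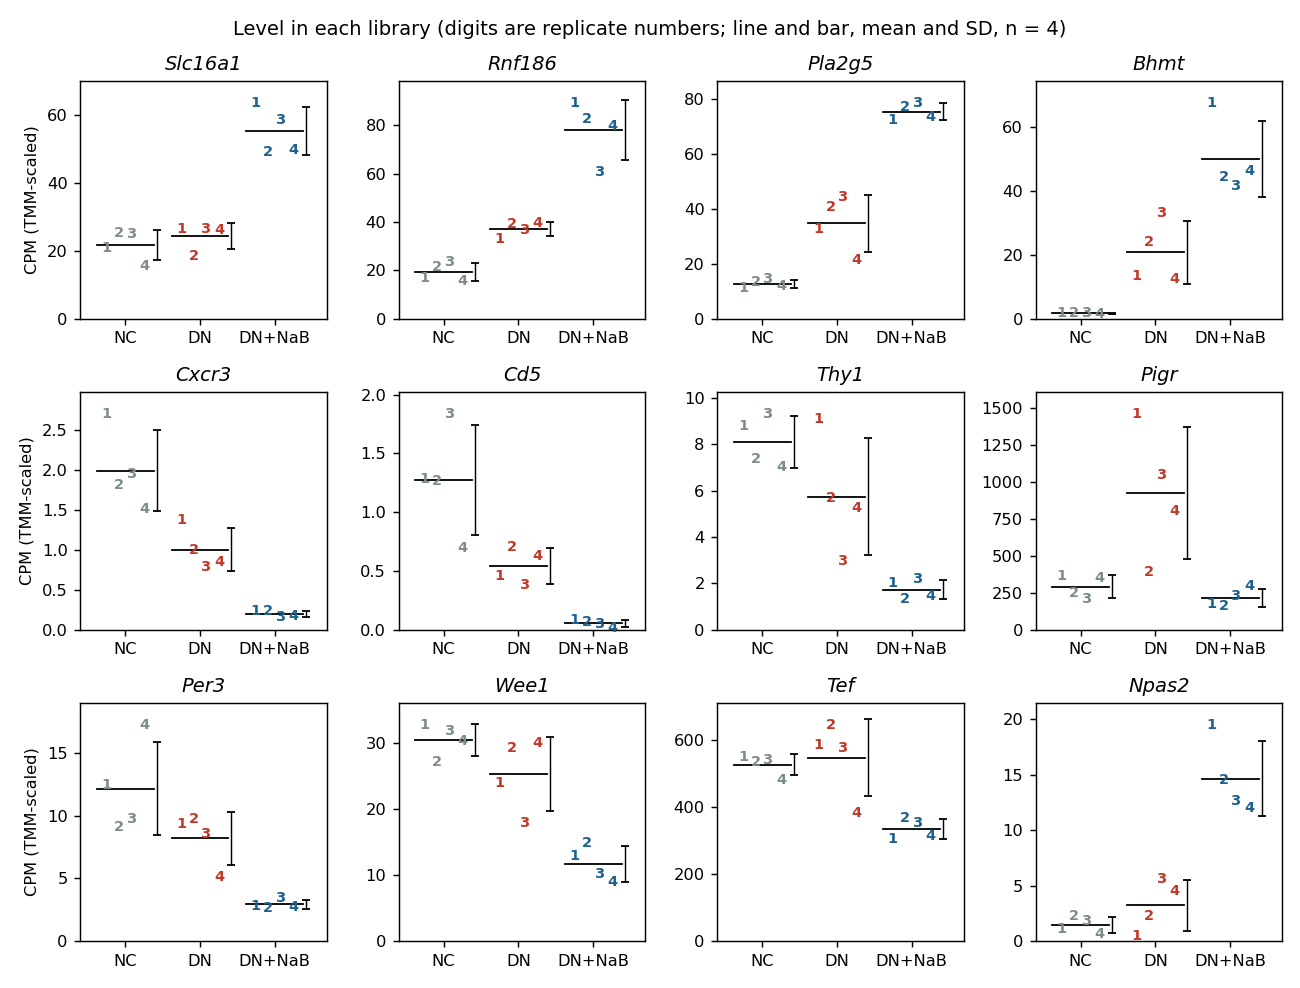
Level of 12 genes in each library in CPM (y axis, from 0) for NC, DN and DN+NaB (x axis). Digits are replicate numbers, and the line and bar are mean and SD (n = 4). For Slc16a1 the DN+NaB libraries sit at 49.3 to 63.7, above the DN libraries at 18.5 to 26.4, while Cxcr3 and Cd5 lie near the bottom of the axis in DN+NaB.

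A further 20 genes had the same adjusted p of 0.0507 in edgeR and just missed the threshold. Higher in DN+NaB among them were Pla2g5, Foxs1 (a forkhead factor, 1.63 ± 0.29), Camk1g (a calmodulin-dependent kinase, 0.91 ± 0.16), Cdh4 (a cadherin, 1.83 ± 0.32), Nav2 (0.86 ± 0.15) and Flcn, the folliculin gene (0.60 ± 0.11). On the low side stood the T cell genes Themis, Gzmk, Lat, Thy1 and Ctsw, with Gfi1, a transcriptional repressor of blood cells, and Rasal3, a Ras GTPase-activating protein of leukocytes. The clock genes Per3 and Wee1, Pigr, Arhgef19, Slc6a9 (a glycine transporter) and Susd3 had the same p on that side. For Cdh4, DN minus NC was -1.81 ± 0.32 (adjusted p = 0.00298, edgeR), in a comparison that shares the DN libraries.

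Genes of T cells and natural killer (NK) cells were lower as a group. T cells carry the CD3 and antigen receptor complex, signal through Lck, Zap70 and Lat and, when cytotoxic, store granzymes and perforin. Of 25 listed genes, chosen with earlier results of these data known, 20 were tested. The 5 left out were Cd2 and Trac, at 0 counts in all 12 libraries, and Cd28, Klrb1c and Ifng, at no more than 15. All 20 had a negative log2 fold change, as did 52.8% of all genes, with a median of -1.85 beside -0.02 over all genes. Cxcr3 and Cd5 were called, 19 had an unadjusted p under 0.05 on the low side (6.12% of all genes did), and 13 had groups without overlap (2.44%). The minimum level of the filter, 0.157 CPM, was reached in all 4 NC libraries by 20 of them, in all 4 DN libraries by 19 and in all 4 DN+NaB libraries by 11, so the tested members were partly chosen by the groups that are high. In bulk tissue, fewer cells of a type and less RNA per cell cannot be told apart.

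The summed level of the T and NK cell list shows the groups library by library. It was 46.7, 26.4, 16.9 and 29.5 CPM in DN and 7.91, 8.28, 10.4 and 10.3 in DN+NaB, against 38.1 to 63.9 in NC. Every DN+NaB library was below every DN library, with DN replicate 3 nearest. DN minus NC had a median of -0.89 over the same genes, with 4 of the 20 called lower in DN (4.42% of all genes were). The summed level of DN replicate 1 lay inside the NC range.

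Single members differed in level but not in direction. Thy1, a surface glycoprotein of mouse T cells, stood at 9.09, 5.70, 2.97 and 5.25 CPM in DN and 1.31 to 2.17 in DN+NaB, a log2 fold change of -1.73 ± 0.29 (adjusted p = 0.0507, edgeR). Its lowest DN value is again that of replicate 3, and the groups did not overlap. Gzmb, the granzyme B gene, had 6.16, 1.25, 1.30 and 3.89 CPM in DN and 0.238 to 0.459 in DN+NaB, a log2 fold change of -3.29 ± 0.62 (adjusted p = 0.0776, edgeR). For this gene DN minus NC was 0.39 ± 0.55. Cd8b1, a chain of the CD8 co-receptor, had -3.72 ± 0.73, and Cd247, the CD3 zeta chain, -2.33 ± 0.46. Nkg7, a cytotoxic granule protein, had -1.54 ± 0.29. The co-receptor gene Cd4 showed the other pattern. It stood at 0.799, 1.34, 0.621 and 1.31 CPM in DN and at 0.411 to 0.675 in DN+NaB, which overlapped (-0.95 ± 0.30), while NC held 2.23 to 3.63 and DN minus NC was -1.65 ± 0.29 (adjusted p = 0.00278, edgeR).

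Lat and Themis are T cell genes outside the list that were picked because they were low, so they add no support to it. The list itself was not chosen blind to these data. Lat, the adaptor of the T cell receptor, had 17 to 117 counts in the DN libraries and 2 to 9 in DN+NaB, with a log2 fold change of -3.47 ± 0.57. Themis, a regulator of T cell selection, had 45, 10, 4 and 28 counts in DN and 0, 0, 1 and 0 in DN+NaB. A fold against such values is not a measurement of size, since 0 allows up to 3 counts.

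Antigen presentation genes were also lower, though none of the 17 tested (of 19 listed) was called by edgeR, and 8 had an unadjusted p under 0.05 on the low side. The shares over all genes are 6.12% for the latter and 2.44% for low-side groups without overlap, which 2 members had. Their median was -1.45, or -0.65 with limma and sample quality weights. These genes encode major histocompatibility complex (MHC) chains and the machinery that loads peptides on them, and injured tubular cells can express them as well as leukocytes. H2-Ab1, a class II beta chain, stood at 23.7, 7.78, 11.9 and 6.05 CPM in DN and at 0.476, 0.646, 2.90 and 2.21 in DN+NaB (-2.98 ± 0.59, adjusted p = 0.0844, edgeR). DN+NaB was in or below the range of NC (2.36 to 4.59), and DN was above it in each library. Cd74, the class II invariant chain, stood at 4084, 1023, 3526 and 1767 CPM in DN and at 235, 221, 600 and 871 in DN+NaB (-2.43 ± 0.52, adjusted p = 0.127, edgeR). Its groups did not overlap, and DN replicate 2 was the nearest to DN+NaB. The class I genes B2m (-1.45 ± 0.39) and H2-K1 (-1.58 ± 0.42) overlapped between the groups. H2-Aa, the class II alpha chain, had 0 counts in DN replicate 1, which held the most H2-Ab1, and 0 to 91 in DN+NaB, so its counts did not follow its partner chain. The untested H2-D1 had at most 1 count in any library. Whether reads of such genes were fully counted is not known here, so these zeros are not read as expression. DN minus NC, which shares the DN libraries, had a median of 1.84 over the list. In it 5 members were called higher in DN, as were 3.82% of all genes.

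Pigr, the receptor that carries polymeric immunoglobulin across epithelia, was named after its value was seen. It stood at 1463, 394, 1049 and 803 CPM in DN and at 173, 162, 229 and 295 in DN+NaB, against 205 to 365 in NC. The DN+NaB libraries were all below DN and lay within or below the NC range. The log2 fold change was -2.11 ± 0.35 (adjusted p = 0.0507, edgeR), and DN minus NC was 1.66 ± 0.35 (adjusted p = 0.0115, edgeR). Both comparisons share the DN libraries.

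The macrophage, complement, chemokine and injury lists had negative medians that depended on DN replicate 4. No member of these 4 lists was called with all libraries by edgeR. The counts at an unadjusted p under 0.05, all on the low side, were 8, 5, 6 and 5, beside 6.12% of all genes. Macrophage and dendritic cell genes (19 tested of 20) had a median of -0.54, and -0.19 without that library, with 8 and 4 members at an unadjusted p under 0.05 on the low side. Clec9a, a receptor of cross-presenting dendritic cells, was the nearest to a call: it stood at 1.19, 0.792, 0.802 and 1.94 CPM in DN and 0.221 to 0.444 in DN+NaB (-1.82 ± 0.39, adjusted p = 0.0981, edgeR), without overlap. Cd68, a lysosomal protein of macrophages, stood at 3.59, 3.68, 3.80 and 6.57 CPM in DN and 2.19 to 3.16 in DN+NaB (-0.65 ± 0.21). The groups were apart in both genes, and the highest value was in DN replicate 4. Ccr2, the monocyte chemokine receptor, had -1.67 ± 0.53, with overlap. Over the macrophage and dendritic cell list, DN minus NC had a median of -0.53, with 4 members called lower and 0 higher in DN. Over all genes the shares were 4.42% lower and 3.82% higher.

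Complement genes (all 19 tested) had a median of -0.45, and -0.16 without DN replicate 4. C3, the central component of complement, stood at 1162, 259, 702 and 1295 CPM in DN and at 363, 242, 395 and 377 in DN+NaB, against 46.0 to 78.3 in NC. DN replicate 2 lay inside the DN+NaB range and the other 3 lay above it. The log2 fold change was -1.31 ± 0.39 (adjusted p = 0.274, edgeR), with -1.61 (0.0497) without DN replicate 2, -1.13 (0.474) without replicate 1, -1.39 (0.179) without replicate 3 and -1.03 (0.592) without replicate 4. C3 in DN+NaB remained several times its NC level, and DN minus NC was 3.75 ± 0.43 (adjusted p = 0.00023, edgeR).

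Chemokine, cytokine and NF-kB genes (20 tested of 25) had a median of -0.70, and -0.01 without DN replicate 4. Cxcl1, a neutrophil chemokine, stood at 1.32, 0.493, 0.908 and 17.5 CPM in DN and 0.379 to 0.732 in DN+NaB. Its log2 fold change of -3.29 ± 1.05 became -0.81 without that library. Ccl2, the monocyte chemokine, stood at 0.047, 0.0704, 0.0151 and 2.86 CPM in DN and 0.0166 to 0.33 in DN+NaB, and its -2.41 ± 1.29 turned to 1.64. In both genes 1 library set the direction or the size. Cxcl16, the ligand of the lymphocyte chemokine receptor Cxcr6, did not rest on it: it stood at 4.70, 4.08, 9.73 and 6.28 CPM in DN and at 2.91, 1.41, 3.52 and 3.37 in DN+NaB, a log2 fold change of -1.14 ± 0.34 that was -1.12 without DN replicate 4 (adjusted p = 0.270 with all libraries, edgeR). The untested members were Tnf, at 0 counts in every library, and Ccl3, Ccl7, Ccl20 and Il6. The highest single-library count of each was in DN (46, 171, 57 and 183), which gives no level of the group.

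Tubular injury genes (21 tested of 22) had a median of -0.50, and 0.04 without DN replicate 4. Havcr1, the kidney injury molecule KIM-1, stood at 0.768, 0.106, 0.394 and 16.6 CPM in DN and 0.0851 to 0.444 in DN+NaB. Lcn2, the injury marker NGAL, stood at 11.1, 2.46, 8.11 and 241 CPM in DN and 2.7 to 10.5 in DN+NaB. In each gene DN replicate 4 stood alone, and the other 3 DN libraries lay within or near the DN+NaB range. The log2 fold changes of -4.57 ± 1.5 and -3.58 ± 1.28 became -1.17 and -0.39 without it. Plaur, the urokinase receptor, stood at 10.8, 9.22, 9.73 and 32.8 CPM in DN and 5.28 to 8.42 in DN+NaB, so the other DN libraries were also above DN+NaB, by less (-1.12 ± 0.35, and -0.46 without DN replicate 4). The globin counts and the first component given above single out the same library, and their part in these differences was not tested.

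Circadian clock genes lay on both sides of 0, 15 below it and 6 above it. Most repressors and D-box factors lay below. The activators Npas2 and Arntl lay above, as did Nfil3 (0.87) and Nr1d1 (0.58). In the clock, Arntl and Clock or Npas2 form a complex that binds the E-box and switches on the Per, Cry, Ciart and Nr1d genes and the D-box factors Dbp, Tef and Hlf, whose products feed back. To show the elements by which these genes are known to be driven, the promoter windows of 4 of the 6 genes that hold one are printed, those with the lowest log2 fold changes, leaving out Per1 (-0.39) and Bhlhe41 (0.01), from the RefSeq table (build GRCm38.p6, 250 bases before to 50 after the start, 5′ to 3′ on the gene's strand). Capitals mark each E-box CACGTG and each D-box TTATGTAA (or TTACATAA), which were searched on both strands. The windows are Per3 at chr4:151044616-151044915 (minus strand), Ciart at chr3:95882179-95882478 (minus), Tef at chr15:81802423-81802722 (plus) and Cry1 at chr10:85185005-85185304 (minus).
Per3: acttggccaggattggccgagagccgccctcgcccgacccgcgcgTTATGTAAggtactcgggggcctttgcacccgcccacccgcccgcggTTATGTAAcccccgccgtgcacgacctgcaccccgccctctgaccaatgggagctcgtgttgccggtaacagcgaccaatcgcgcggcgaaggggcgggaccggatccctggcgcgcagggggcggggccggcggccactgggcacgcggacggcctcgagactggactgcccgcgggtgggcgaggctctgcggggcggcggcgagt
Ciart: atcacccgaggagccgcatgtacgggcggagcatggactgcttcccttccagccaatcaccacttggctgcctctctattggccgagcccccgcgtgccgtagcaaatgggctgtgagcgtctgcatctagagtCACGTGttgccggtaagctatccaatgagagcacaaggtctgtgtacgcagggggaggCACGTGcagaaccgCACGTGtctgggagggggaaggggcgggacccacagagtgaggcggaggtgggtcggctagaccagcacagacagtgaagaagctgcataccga
Tef: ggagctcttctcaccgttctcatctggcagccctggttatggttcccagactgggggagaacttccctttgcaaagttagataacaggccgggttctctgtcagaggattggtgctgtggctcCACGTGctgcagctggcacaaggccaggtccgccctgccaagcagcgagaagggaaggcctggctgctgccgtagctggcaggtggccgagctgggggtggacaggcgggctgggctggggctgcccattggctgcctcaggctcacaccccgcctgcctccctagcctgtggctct
Cry1: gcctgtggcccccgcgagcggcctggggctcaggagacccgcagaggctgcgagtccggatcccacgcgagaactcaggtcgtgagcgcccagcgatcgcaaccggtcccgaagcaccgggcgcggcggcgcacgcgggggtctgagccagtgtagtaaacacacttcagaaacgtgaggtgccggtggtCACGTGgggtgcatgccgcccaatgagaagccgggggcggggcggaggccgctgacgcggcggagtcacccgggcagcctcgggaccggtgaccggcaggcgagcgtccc
The Per3 window holds 2 D-boxes, which 7 of all 32851 windows do (0.0213%), and the Ciart window holds 3 E-boxes, which 29 do with 3 or more (0.0883%). An E-box occurs in 7.15% of all windows and a D-box in 0.938%. Of the 21 clock genes 17 matched the table, with 22 windows, of which 6 (27.3%) held an E-box and 1 a D-box. A match is a description of letters and not a measured binding site.

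All 21 clock genes were tested, and edgeR called none with all libraries and TMM factors under the filter used here. It called 2 lower with RLE factors, 3 with library sizes alone and 0 with a replicate block. Over all genes these settings called 14, 18 and 3 lower. Limma with sample quality weights called 9 clock genes lower and 1 higher, of 44 and 26 over all genes. At an unadjusted p under 0.05, 13 were on the low side and 2 on the high side (6.12% and 3.73% of all genes), and 9 and 1 had groups without overlap. The median was -0.70. Per3, a period gene, stood at 9.36, 9.75, 8.55 and 5.10 CPM in DN and at 2.81, 2.65, 3.46 and 2.73 in DN+NaB (-1.49 ± 0.24, adjusted p = 0.0507, edgeR). Wee1, a cell cycle kinase under clock control, stood at 24.0, 29.3, 17.8 and 30.0 CPM in DN and 8.90 to 14.9 in DN+NaB (-1.11 ± 0.18, adjusted p = 0.0507, edgeR). Neither gene overlapped between the groups, although DN replicate 4 was nearest for Per3 and replicate 3 for Wee1.

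Tef, a D-box factor, stood at 585, 644, 577 and 382 CPM in DN and at 304, 368, 350 and 314 in DN+NaB (-0.71 ± 0.14, adjusted p = 0.0819, edgeR). Cry1, a repressor of the E-box complex, stood at 11.7, 5.75, 4.56 and 10.0 CPM in DN and 1.48 to 3.78 in DN+NaB (-1.78 ± 0.36, adjusted p = 0.0842, edgeR). Both were apart between the groups, Tef narrowly. Ciart, another repressor, stood at 16.6, 19.8, 17.7 and 9.23 CPM in DN and at 3.27, 9.02, 4.08 and 1.91 in DN+NaB (-1.79 ± 0.48), with 1 DN and 1 DN+NaB library nearly equal. Others on this side were Per2 (-1.33 ± 0.33), Cry2 (-0.83 ± 0.19), Nr1d2 (-1.02 ± 0.28), Rora (-0.78 ± 0.18), Hlf (-0.48 ± 0.12) and Dbp (-1.41 ± 0.41), with Per1 at -0.39 and Usp2, a deubiquitinase, at -0.38.

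Npas2 and Arntl, partners in the activating complex, lay above 0, while Clock itself was at -0.08. Npas2 stood at 0.455, 2.27, 5.56 and 4.52 CPM in DN and at 19.5, 14.5, 12.6 and 12.0 in DN+NaB, without overlap (2.19 ± 0.59, adjusted p = 0.227, edgeR). Arntl, the gene of BMAL1, stood at 2.26, 3.27, 5.83 and 10.4 CPM in DN and at 19.98, 15.7, 10.4 and 10.5 in DN+NaB (1.38 ± 0.53, adjusted p = 0.432, edgeR). Both varied several-fold among the DN libraries. Nr1d1, the gene of REV-ERB alpha, stood at 91.3, 119, 179 and 101 CPM in DN and 160 to 199 in DN+NaB (0.58 ± 0.40), so it did not follow its paralogue Nr1d2. NC varied as well: its replicate 4 held 1.40 CPM of Arntl against 5.91 to 8.22 in the other 3, and 208 CPM of Dbp against 61.7 to 109. DN minus NC had a median of 0.03. The part of the hour of collection in the difference between DN+NaB and DN was not tested.

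Among genes that carry or burn butyrate and the deacetylases it inhibits, Slc16a1 was the 1 call by edgeR. Of 18 listed transporters and receptors 12 were tested, with 3 at an unadjusted p under 0.05 on the high side and 1 on the low side. The shares over all genes are 3.73% and 6.12%. Values were positive for 4 of the 12 and negative for 8, with a median of -0.10. Slc22a7, an organic anion transporter of the tubule, had the largest log2 fold change of the 12 (1.36 ± 0.39, adjusted p = 0.265, edgeR), at 0.909, 1.67, 1.67 and 1.16 CPM in DN and 1.59 to 6.81 in DN+NaB, with overlap. In NC it stood at 98.2 to 159 CPM. Slc5a8, the sodium-coupled monocarboxylate transporter of the proximal tubule, stood at 270, 199, 153 and 176 CPM in DN and at 119, 128, 152 and 127 in DN+NaB (-0.60 ± 0.17, adjusted p = 0.251, edgeR). So Slc16a1 and Slc5a8 had opposite signs, and for Slc5a8 the groups were almost in contact. Bsg, the chaperone that brings MCT1 to the membrane, had a log2 fold change of 0.17, and Slc16a7, the MCT2 gene, -0.08. Abcg2, an efflux pump, had 0.30 ± 0.12. The butyrate receptors did not pass the filter and were not tested. Ffar3 had 0 counts in all libraries and Ffar2 at most 16 in any. The highest single-library count of Hcar2 was 229 in DN and 11 in DN+NaB, which gives no level of a group. Slc16a8, Olfr78 and Slc26a3 also had too few counts, at most 16.

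Of 21 genes of ketone body and butyrate oxidation none was called by edgeR, and the median was 0.12. With an unadjusted p under 0.05 there were 2 on the high side and 1 on the low side (3.73% and 6.12% of all genes were). Without DN replicate 4 the median was 0.02, and 0 were on the high side without it or without DN replicate 1. Aacs, which activates acetoacetate for lipid synthesis, stood at 104, 107, 134 and 86.5 CPM in DN and 50.8 to 77.3 in DN+NaB (-0.66 ± 0.16, adjusted p = 0.164, edgeR).

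The deacetylase and acetyltransferase list (29 tested) had a median of 0.00, with 15 positive and 14 negative values. None was called by edgeR, and 1 member in each direction had an unadjusted p under 0.05, beside 3.73% (high) and 6.12% (low) of all genes. Hdac1 had a log2 fold change of 0.02 ± 0.12 and Hdac2 of 0.00 ± 0.16. Hdac7, a class IIa deacetylase, stood at 34.3, 37.6, 40.2 and 43.6 CPM in DN and at 33.5, 28.8, 28.2 and 27.2 in DN+NaB (-0.40 ± 0.11), apart by under 1 CPM. Hdac6, the cytoplasmic deacetylase of tubulin, had 0.39 ± 0.13. These are transcript levels, and enzyme activity and histone acetylation were not measured.

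Several lists shifted by small amounts. Unfolded protein and integrated stress response genes (25 tested) had 23 negative values, beside 52.8% of all genes. Their median was -0.35, or -0.23 without DN replicate 4. On the low side 8 had an unadjusted p under 0.05 (6.12% of all genes did). Edem1, which directs misfolded glycoproteins to degradation, stood at 125, 101, 111 and 145 CPM in DN and 80.3 to 89.2 in DN+NaB (-0.53 ± 0.11, adjusted p = 0.0981, edgeR). Its groups did not overlap. The chaperone-related genes Pdia4 (-0.51 ± 0.15) and Dnajc3 (-0.46) and the sensor Atf6 (-0.29 ± 0.10) had smaller or less separated differences. DN minus NC, which shares the DN libraries, had a median of 0.59 here. In it 7 members were called higher in DN, as were 3.82% of all genes.

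Intercalated cell genes, of the acid-base cells of the collecting duct, had a median of 0.28 (16 tested) and no call by edgeR. With an unadjusted p under 0.05 there were 7 on the high side and none on the low side (3.73% and 6.12% of all genes were). Foxi1, the transcription factor of these cells, stood at 29.0, 28.6, 26.5 and 27.01 CPM in DN and at 44.7, 39.2, 36.0 and 50.9 in DN+NaB (0.62 ± 0.15, adjusted p = 0.167, edgeR). Slc26a4, the chloride-bicarbonate exchanger pendrin, stood at 48.1, 40.6, 35.5 and 26.5 CPM in DN and 50.2 to 65.5 in DN+NaB (0.60 ± 0.16, adjusted p = 0.196, edgeR). Insrr, an alkali-sensing receptor kinase, had 0.47 ± 0.15, and in all 3 genes the groups did not overlap. Slc26a4 and Insrr were called lower in DN than in NC (-0.72 ± 0.16 and -0.72 ± 0.15, adjusted p = 0.0124 and 0.00754, edgeR), and the list median of DN minus NC was -0.32. That comparison shares the DN libraries, so the opposed signs are not independent. The list median stayed between 0.23 and 0.35 whichever DN library was left out.

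Nuclear-encoded respiratory chain genes had a positive value in 46 of 47, as 47.2% of all genes did, but of small size: the median was 0.20, or 0.09 without DN replicate 4. With an unadjusted p under 0.05 there were 3 on the high side, 14 without DN replicate 3, 13 with a replicate block, and 0 with 1 on the low side without DN replicate 4. The high side over all 17530 genes moved as well. It held 654 (3.73%) with all libraries, 1419 without DN replicate 3, 824 with the block and 516 without DN replicate 4. Cox6c, a subunit of cytochrome c oxidase, stood at 181, 205, 203 and 147 CPM in DN and 224 to 254 in DN+NaB (0.35 ± 0.15, adjusted p = 0.475, edgeR). Amino acid breakdown and one-carbon genes (41 tested) had a median of 0.17, which was 0.07 without DN replicate 4 and 0.25 without DN replicate 3. On the high and low side 7 and 2 members had an unadjusted p under 0.05 (3.73% and 6.12% of all genes did). Bhmt, which remethylates homocysteine with betaine, stood at 13.2, 24.1, 33.2 and 12.5 CPM in DN and at 67.7, 44.4, 41.4 and 46.3 in DN+NaB, against 1.58 to 1.90 in NC (1.27 ± 0.27, adjusted p = 0.111, edgeR). Every DN+NaB library was above DN, and every DN library above NC (3.58 ± 0.31, adjusted p = 1.24e-05, edgeR). Hpd, a tyrosine-degrading enzyme, had 0.67 ± 0.17, also without overlap.

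Extracellular matrix genes (32 tested) had a median of 0.16 and no call by edgeR. With an unadjusted p under 0.05 there were 5 members, all on the high side (3.73% of all genes were). Without DN replicate 1 there were 1 on the high and 2 on the low side, and without DN replicate 2 there were 2 and 0. Without DN replicate 4 there were 9 and 0, with a median of 0.29. Of all 17530 genes, 654 were on the high side with all libraries and 516 without DN replicate 4. Over the matrix list, DN minus NC, which shares the DN libraries, had a median of -0.54. In it 13 members were called lower and 1 higher in DN, beside 4.42% and 3.82% of all genes. Col15a1, a basement membrane collagen, stood at 15.2, 23.8, 20.7 and 21.7 CPM in DN and 25.3 to 30.5 in DN+NaB (0.50 ± 0.15), against 67.9 to 107 in NC. Fn1, fibronectin, had 0.46 ± 0.25 with overlap. Col1a1 stood at 12.6, 23.8, 22.8 and 114 CPM in DN and 15.1 to 29.6 in DN+NaB, so its -0.90 ± 0.58 came with the value of DN replicate 4 and was 0.24 without it. Tgfb1, the growth factor gene, had -0.16 ± 0.14. Of the other genes followed, the podocyte gene Nphs1 had 0.30 ± 0.14, the glucose transporter Slc5a2 had 0.61 ± 0.22, the gluconeogenic Pck1 had -0.30 ± 0.20 and Umod, the uromodulin gene, had -0.05 ± 0.20. None of these was called by edgeR.

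DESeq2 called more genes overall than edgeR, 173 lower (0.991%) and 84 higher (0.481%) of 17465, and more members of these lists: 13 T and NK cell genes, 10 clock genes on the low side and 1 on the high side, 2 antigen presentation genes, and 1 each of the macrophage, complement, deacetylase, ketone body and stress response lists, all lower. It called 2 transporter, 2 intercalated cell and 3 amino acid genes higher, and 0 of the chemokine, injury, respiratory chain and matrix lists.

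**Figure D3:**
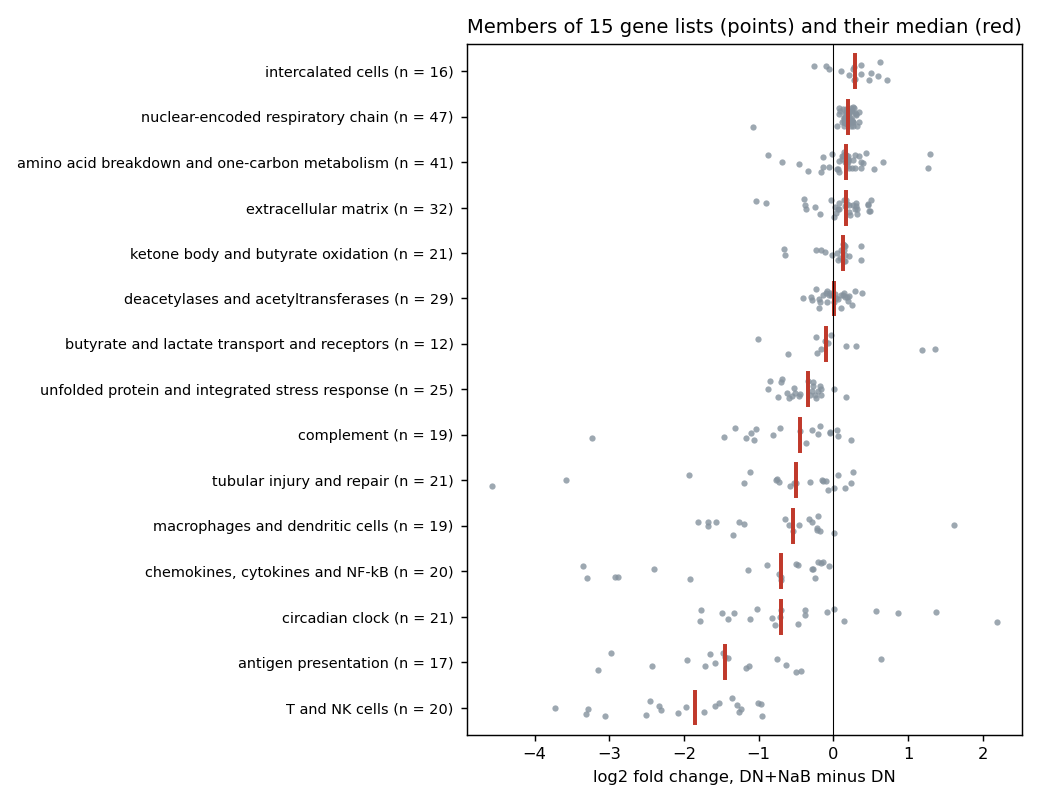
Log2 fold change of DN+NaB minus DN (x axis) for the tested members of 15 gene lists (grey points, 1 per gene) with the list median (red bar). T and NK cell genes have the lowest median (-1.85), deacetylases lie around 0.00, and intercalated cell genes have the highest (0.28).

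The count of called genes depended on single DN libraries. With DN replicate 3 left out it rose from 4 to 67 (30 higher or 0.171%, 37 lower or 0.211%), with DN replicate 4 left out to 32 (8 and 24, or 0.0456% and 0.137%), without DN replicate 2 it was 4 and without DN replicate 1 it was 0, where 1501 genes still had an unadjusted p under 0.05 in edgeR. Slc16a1, Rnf186, Cxcr3 and Cd5 were all called without DN replicate 3 and without DN replicate 4. Of the 4 calls without DN replicate 2, only Cxcr3 was among those of all libraries. Over all 22 settings tried, with all libraries and the alternatives, the log2 fold change ran from 1.08 to 1.31 for Slc16a1, from 1.0 to 1.17 for Rnf186 and from -2.41 to -2.12 for Cxcr3, which were called in 14, 13 and 15 of them. Cd5 ran from -3.61 to -2.98 and was called in 10 of 21. The adjusted p of these 4 genes was 0.124 to 0.144 without DN replicate 1 (edgeR). The calls without DN replicate 3 and those without DN replicate 4 shared 13 genes, 19.4% of the 67 and 40.6% of the 32, with the 4 above among them. Cxcr3 was called in 3 of the 4 omissions, 12 genes were called in 2, 76 in 1 and 0 in all 4.

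Leaving out DN replicate 3 brought calls of Tlr12, Ethe1 and Bhmt, for which that library was the DN library nearest to DN+NaB, and of T cell genes. Tlr12, a Toll-like receptor, stood at 8.81, 9.85, 0.136 and 5.21 CPM in DN and at 0.051 to 0.329 in DN+NaB. DN replicate 3 lay inside the DN+NaB range, and the log2 fold change was -5.05 ± 0.97 with all libraries (adjusted p = 0.0844, edgeR) and the adjusted p was 4.57e-05 without it. Ethe1, a mitochondrial sulphur dioxygenase, stood at 51.7, 98.4, 160 and 59.5 CPM in DN and 169 to 245 in DN+NaB, with an adjusted p of 0.171 that became 0.00986. T and NK cell calls went from 2 to 8 of 20 and clock calls from 0 to 4 of 21, all lower, as the share of all genes called lower went from 0.0114% to 0.211%. Leaving out DN replicate 4 brought 4 clock calls too, with Tef and Cry2 at adjusted p of 0.0112 and 0.0226. The mitochondrial share of counts is lowest in DN replicate 3 among the DN libraries, and its part in these calls was not tested.

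**Figure D4:**
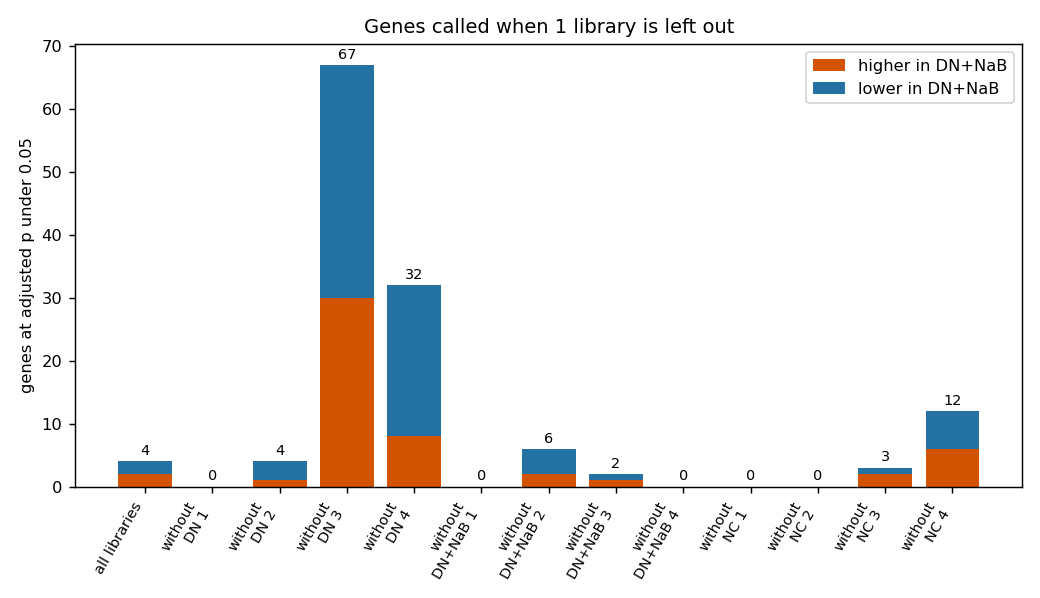
Number of genes at an adjusted p under 0.05 (y axis, from 0) with all libraries and with 1 library left out (x axis), split into genes higher (orange) and lower (blue) in DN+NaB. The count runs from 0 to 67, and it is largest without DN replicate 3.

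List medians divided into those that held and those that did not. The T and NK cell median ran from -2.16 to -1.56, antigen presentation from -1.70 to -1.14 and the clock from -0.68 to -0.47 across the 4 omissions. Those of chemokines (-0.91 to -0.01), injury (-0.80 to 0.04), macrophages (-0.62 to -0.19) and complement (-0.66 to -0.16) came nearest to 0, or crossed it, without DN replicate 4.

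**Figure D5:**
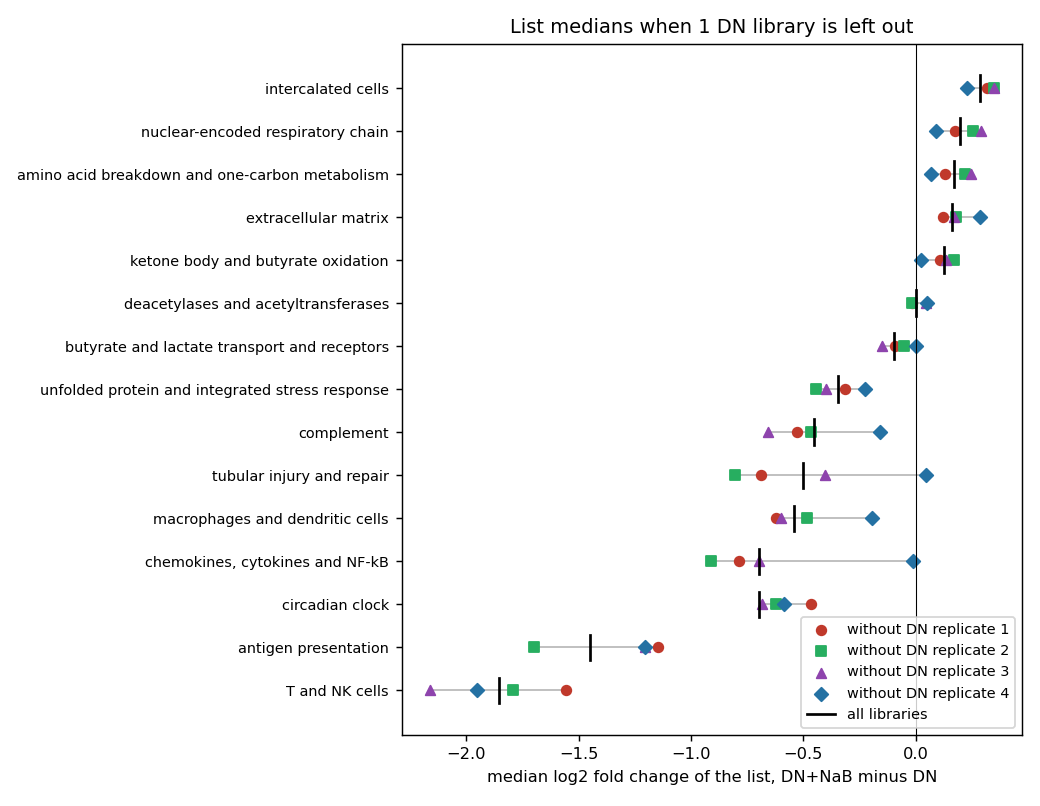
Median log2 fold change of 15 gene lists (x axis) with all libraries (black bar) and with each DN library left out (coloured symbols). The T and NK cell, antigen presentation and clock medians stay below 0 in each case, while the blue diamonds of DN replicate 4 sit at 0.04 for injury and at -0.01 for chemokines.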

How the data were processed

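RNA of 12 renal cortex libraries was sequenced, and the authors deposited 1 table of raw counts per gene symbol. The submitters' processing notes name HISAT2 2.0.4. Counter, strand setting, annotation and build were not given in the sources used here, so genes with near-identical copies, overlapping and antisense genes are uncertain. Columns matched sample titles, and groups came from the labels.

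Genes were filtered with filterByExpr by group (17530 of 46095, at least 99.95% of each library's counts), scaled with TMM factors and fitted with edgeR 4.0.16 (quasi-likelihood, robust, R 4.3.3) with all 12 libraries in 1 model. The contrast was DN+NaB minus DN, two-sided, with calls made below an adjusted p of 0.05 (Benjamini-Hochberg). Standard errors came from the F statistic. The median standard error above 1 CPM was 0.17, and no 2 libraries agreed within sampling noise. The fit was tested on simulated data.

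Gene lists, and the conditions of this comparison, were chosen with earlier results of these data known. Named genes were called genes with separated groups (up to 15 per direction), the 4 members with the smallest p in each of 15 lists, up to 8 per direction gained without the DN library that moved the count most (replicate 3), and 18 fixed genes. Genes at adjusted p 0.0507, Pigr, other clock and T cell genes, H2-Aa, Bsg, Slc16a7, Lrp2, Snap25, Hbb-bs and the Rnf186 neighbours were added after their values were seen, and not all named genes are printed. Some genes that the rule names are not reported here. RefSeq (GRCm38.p6) gave the promoter windows and gene order, with 16391 of the tested symbols matched. Alternatives were other scaling, filters, DESeq2 1.42.0, limma 3.58.1 with sample quality weights, fewer libraries, a replicate block and leaving out each library (21 in all).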

Additional observations from a re-analysis of the deposited data

Results flagged for a closer look

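Single libraries stood far from the other 3 of their group in 18 of 262 values looked at; the gap to the next library, as a share of the group's range, passed Dixon's 95% limit. Chance alone gives about 1 such value in 20 groups, so many of the 18 could arise by chance. DN replicate 4 held 11 of the 18. In that library Lcn2 stood at 241 CPM, Col1a1 at 114, Tnfrsf12a at 42.2, Tnfaip3 at 33.7, Plaur at 32.8, Cxcl1 at 17.5, Havcr1 at 16.6, C5ar1 at 7.75, Cd68 at 6.57 and Ccl2 at 2.86, each the highest of the DN libraries. Its macrophage and dendritic cell genes summed to 314 CPM, against 168 to 189 in the other DN libraries.

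The other values lay in 6 libraries. Slc16a1 was low in DN replicate 2, at 18.5 CPM against 26.2 to 26.4 in the other DN libraries. Gm5559 was high in DN replicate 3, at 10.2 CPM. In DN+NaB replicate 3, Havcr1 stood at 0.444 CPM and Themis at 0.0165, the latter from 1 count where the others had 0. Gfi1 stood at 0.017 CPM in DN+NaB replicate 1, also from 1 count. Tubular injury genes summed to 1590 CPM in DN+NaB replicate 2, below the others, and ketone body genes to 6280 CPM in DN+NaB replicate 4, also the lowest of that group.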

How the results depend on the processing

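The 4 calls became 22 with RLE factors, 26 with library sizes alone, 27 without a filter, 17 with at least 1 CPM in 4 libraries, 257 with DESeq2 and 70 with limma and sample quality weights. With the 8 diabetic libraries alone edgeR called 0 (1460 at an unadjusted p under 0.05), and leaving out 1 library gave 0 to 67. It gave 0 without NC replicate 1 or 2, DN replicate 1, or DN+NaB replicate 1 or 4 (1442 to 1619 genes at an unadjusted p under 0.05), and 12 without NC replicate 4. Cd5, Cxcr3, Rnf186 and Slc16a1 were all among the calls of DESeq2 and limma. The replicate block gave 7 calls, 2 of them among the 4. Same-numbered DN and DN+NaB libraries deviated together in replicates 2 and 4 (0.25 and 0.37) but not in 1 and 3 (-0.28 and -0.33). So few values cannot show whether the numbers pair the samples, and the labels do not say.

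Some log2 fold changes changed sign. Ccl2 was 0.40 with limma and weights and ran from -3.33 to 1.64 when 1 library was left out (1.64 without DN replicate 4). Col1a1 ran from -1.20 to 0.24 (0.24 without DN replicate 4), Hdac1 from -0.058 to 0.10 and Hdac2 from -0.12 to 0.096. Umod ran from -0.14 to 0.045 and was 0.020 with limma and weights. Hdac2 was -0.00071 with RLE factors, -0.016 with library sizes, -0.0070 with the CPM filter, -0.00037 with DESeq2 and -0.0098 with the replicate block. The cause was not tested. Genes with few counts, such as Cd5 and Themis, are limited by depth.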
